A study of Mus musculus with 6 samples.

Results

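The 9 genes described here were grouped as genes of replication-independent variants of histones H2A and H3 that are expressed outside the germline. They are H2afx, which encodes H2A.X, H2afj (H2A.J), H2afz and H2afv (both H2A.Z), H2afy and H2afy2 (macroH2A), H3f3a and H3f3b (both H3.3), and Cenpa, the H3 variant of centromeres. They were chosen by symbol, and all 9 were found among the 33924 genes of the table.

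Most histone protein is made in S phase from intronless genes that lie in clusters and whose mRNAs end in a stem-loop instead of a poly(A) tail. Replacement variants are made throughout the cell cycle, mostly from single genes with introns and polyadenylated mRNAs, and are placed into chromatin by dedicated chaperones. In cells that no longer divide, such as neurons, H3.3 is known to build up in chromatin over time. H3.3 marks active genes and also heterochromatin, H2A.Z flanks promoters, macroH2A is linked to silent chromatin, H2A.X is phosphorylated where DNA breaks, and CENP-A specifies the centromere.

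Total RNA was sequenced from RPE/choroid of C57BL/6J mice, the retinal pigment epithelium (RPE) with the vascular layer under it, which had been scraped off the opened eye. Libraries came from 3 young mice, labelled 1 to 2 months old, and 3 aged mice, labelled 20 to 24 months in the titles and 22 to 24 months in the time label. Both groups are of the same strain with no further treatment, and all mice carry the label male, although the methods name both sexes and a somewhat older young group. Each sample was a pair of eyes. The value analysed is 1 mean per gene over all 6 libraries, young and aged together, in normalized counts. No value per mouse was analysed here, so the levels carry no SD, neighbours in their order cannot be tested, and the difference between young and aged mice is not described.

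Of the 8 RPE genes listed as markers, all were above 0, with Ttr, a carrier of thyroid hormone and retinol, at 99322 and Best1, a chloride channel, at 69.8. Genes listed for melanocytes ran from 7838 to 89145 and endothelial genes from 1025 to 6377. Whether the former came from melanocytes or from the RPE, which is itself pigmented, was not tested. Genes of rod photoreceptors were present as well, with Nrl, a transcription factor of rods, at 5787, although the neural retina had been lifted off. Macrophage genes ran from 266 to 4063, lens genes from 167 to 1973 and genes of dividing cells from 23.8 to 320.1. How much of each member came from which of these cells was not tested, and in such bulk samples fewer cells of a type and less RNA per cell cannot be told apart.

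The sequences that matter most for reading these levels are those that separate, or fail to separate, a gene from its relatives. H3f3a and H3f3b encode the same 136 residues. Their coding sequences nevertheless differ at 95 of 408 bases, in 83 codons, and all 83 changes are silent. The following stretch, codons 87 to 106 counted from the start codon, is shown because it holds 3 of the 4 residues in which H3.3 differs from the protein of Hist1h3f, the clustered H3 gene with the highest deposited mean. Capitals mark bases that differ from H3f3a, in GENCODE transcripts of GRCm38.

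H3f3a: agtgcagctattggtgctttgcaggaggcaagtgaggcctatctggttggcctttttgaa
H3f3b: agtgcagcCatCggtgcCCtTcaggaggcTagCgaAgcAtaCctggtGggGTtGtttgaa
Hist1h3f: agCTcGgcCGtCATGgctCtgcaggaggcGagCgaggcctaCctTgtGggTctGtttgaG
H3f3c: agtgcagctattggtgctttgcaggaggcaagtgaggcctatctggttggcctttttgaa

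H3f3b has 14 capitals in these 60 bases and Hist1h3f has 18. H3f3c, a processed pseudogene of H3f3a on chromosome 2, has 0. It is the same as the H3f3a coding sequence at 407 of its 411 bases and the same as that of H3f3b at 314.

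The second pair, H2afz and H2afv, encodes proteins of 128 residues that differ in 3. Their coding sequences differ at 80 of 384 bases. Codons 23 to 42 are shown with the pseudogene Gm8203, because its 387 bases are those of the H2afz coding sequence and stop codon with 0 differences. Capitals mark bases that differ from H2afz.

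H2afz: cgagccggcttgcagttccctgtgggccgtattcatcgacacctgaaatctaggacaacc
H2afv: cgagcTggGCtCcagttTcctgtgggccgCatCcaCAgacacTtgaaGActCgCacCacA
Gm8203: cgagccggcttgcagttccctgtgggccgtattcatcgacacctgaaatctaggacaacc

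The third set concerns the 3′ ends of the mRNAs. H2afx was the only member whose transcript held the histone stem-loop, a stem of 6 base pairs with a loop of 4 bases, which begins 46 bases past its stop codon. It is shown in capitals with 5 bases on each side, beside those of the clustered H2A and H3 genes with the highest deposited means.

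H2afx: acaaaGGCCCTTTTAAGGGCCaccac
Hist3h2a: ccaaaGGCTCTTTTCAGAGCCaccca
Hist1h3f: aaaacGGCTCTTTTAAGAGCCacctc

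On the sense strand, the consensus stem-loop was found in 56 of 21877 protein-coding genes (0.256%), of which 46 have symbols that begin with Hist. Of the 30 clustered H2A and H3 genes with a coding transcript, 9 are annotated with at most 2 bases after the stop codon, where neither a stem-loop nor a poly(A) signal could be found. The stem-loop was found in 20 of the other 21. A poly(A) signal, AATAAA or ATTAAA, stood in the last 40 bases of the transcript in 7 of the 9 members, H2afx included, and in 3 of those 21 clustered genes. The 2 members without one there were H2afy and H3f3b. How often such a signal stands there over all protein-coding genes was not computed. For the members and clustered genes, 1 transcript per gene was read, that with the longest coding sequence. Other transcripts of H2afy and H3f3b were not searched. All 30 clustered genes had 1 exon, which among the members holds for H2afx and H2afj.

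The members spanned a range of 164 times in their means. H3f3b stood at 8168 normalized counts, H2afy at 1392, H3f3a at 1163, H2afv at 937 and H2afj at 752. Lower means were those of H2afz at 305, H2afy2 at 213, H2afx at 118 and Cenpa at 49.8. Thus 1 of the H3.3 genes held 62.4% of the summed mean of all members, and the gene of the centromeric variant held 0.38%.

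**Figure D1:**
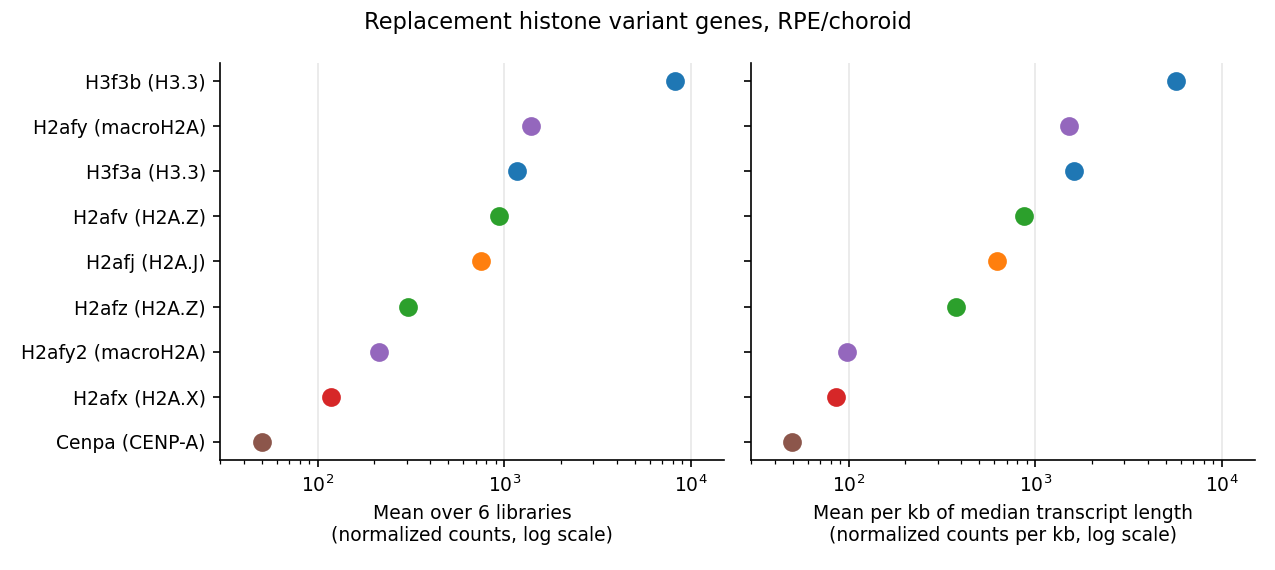
Level of each member gene as 1 point, on the left as the mean over 6 libraries in normalized counts and on the right divided by the median length of its annotated transcripts in kilobases, both on log axes, with colours by protein. H3f3b is the highest and Cenpa the lowest on both scales, and with the median length H2afy and H3f3a exchange places, at 1521 and 1606 per kilobase.

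Per kilobase of transcript the range was 115 times. H3f3b had 5698 normalized counts per kilobase, H3f3a 1606, H2afy 1521, H2afv 871 and H2afj 625. H2afz followed with 376 per kilobase, and H2afy2, H2afx and Cenpa had 98.2, 85.2 and 49.4. H3f3b at the top and H2afy2, H2afx and Cenpa at the bottom therefore kept their places on both scales. The order between them depended on the length used. With the longest transcript, H2afv at 574 and H2afj at 411 stood above H3f3a at 409 and H2afy at 346, and with the longest coding transcript H2afy at 680 was again above H3f3a. Among genes with a mean of at least 10, the median of the deposited means did not rise steadily over 6 classes of transcript length. From the shortest class to the longest it was 267, 523, 312, 327, 391 and 515, and Spearman's rho of mean and length over the 22862 genes above 0 with a length, given as a description, was 0.27. By the methods of the study, the normalized counts were made from TPM values, which are already divided by length. A level per kilobase may therefore be divided by length a second time, and both scales are reported.

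Among the 26681 genes with a mean above 0, 8 of the 9 members lay above the median gene, which had 82.1. H3f3b reached percentile 99.2, rank 222 of the table. H2afy lay at percentile 87.4, H3f3a at 85.0, H2afv at 81.5 and H2afj at 78.1. H2afz, H2afy2 and H2afx lay at 64.0, 59.5 and 53.2, and Cenpa, at percentile 45.8, was the member under the median. These places depend on the genes counted: among genes with a mean of at least 10, H2afz at percentile 46.5, H2afy2 at 39.8 and H2afx at 30.5 also lay under the median, with Cenpa at 19.6.

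**Figure D2:**
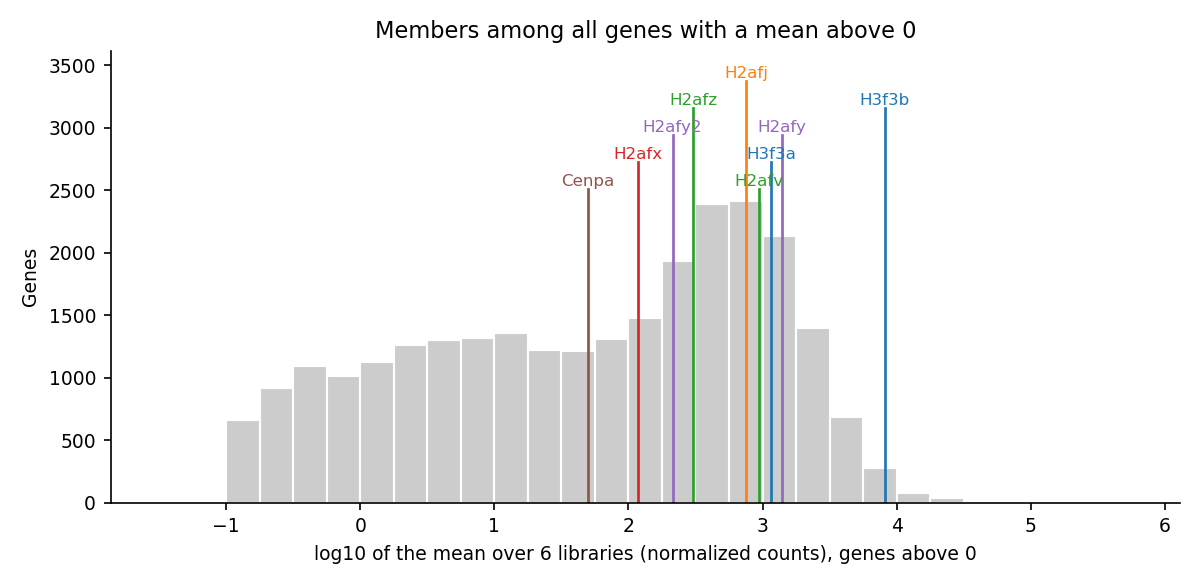
Histogram of the 26681 genes with a mean above 0, by log10 of the mean over 6 libraries (x axis) and number of genes (y axis), with a coloured line at each member. The median gene, at 82.1 normalized counts, is not drawn. The lines of 8 members lie at higher values and that of Cenpa, at 49.8, lies lower.

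H3.3 is deposited independently of replication, and its genes were compared with the clustered H3 genes, which supply the replication-coupled forms. H3f3b is on chromosome 11 at 116021912 to 116027962 (GRCm38, minus strand) and H3f3a on chromosome 1 at 180800832 to 180813943 (minus strand). Both have 3 coding exons. The 12 clustered H3 genes summed to 1259 normalized counts, against 9331 for the H3.3 pair, which therefore held 88.1% of the H3 total. Each H3.3 gene alone stood above each of the 12 clustered genes. The highest of these were Hist1h3f at 323.7 and Hist1h3e at 323.2, and together they held 51.4% of the clustered H3 sum. Both encode the same protein, which differs from H3.3 in 4 of 136 residues.

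The mean of H3f3b was 7.02 times that of H3f3a, and 3.55 times per kilobase. These numbers depend on how reads were shared among copies. The H3f3a transcripts hold 3584 words of 31 bases, of which 70.0% occur in no other annotated gene, whereas for H3f3b the share is 88.8%. Of 9 annotated pseudogenes with at least 50% of their words in H3f3a, 7 have a row in the table, and their means summed to 1021. The highest were Gm6421 at 422, H3f3c at 282 and H3f3a-ps2 at 179. H3f3c has 33 words of 381 to itself. With the copies added, H3f3a stood at 2184 and the ratio of H3f3b to H3f3a fell to 3.74. H3f3b had 0 copies under this rule. Gm6485, with a mean of 249, holds 189 of the 2997 words of H3f3b and was not added. Whether the reads listed under the pseudogenes came from H3f3a cannot be told apart in a table of means. On the strand opposite to H3f3a lie the non-coding genes Gm17275 and H3f3aos. Of the 3584 words of H3f3a, Gm17275 shares 614, the most of any gene, and H3f3aos shares 130. The mean of Gm17275 was 130.4.

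**Figure D3:**
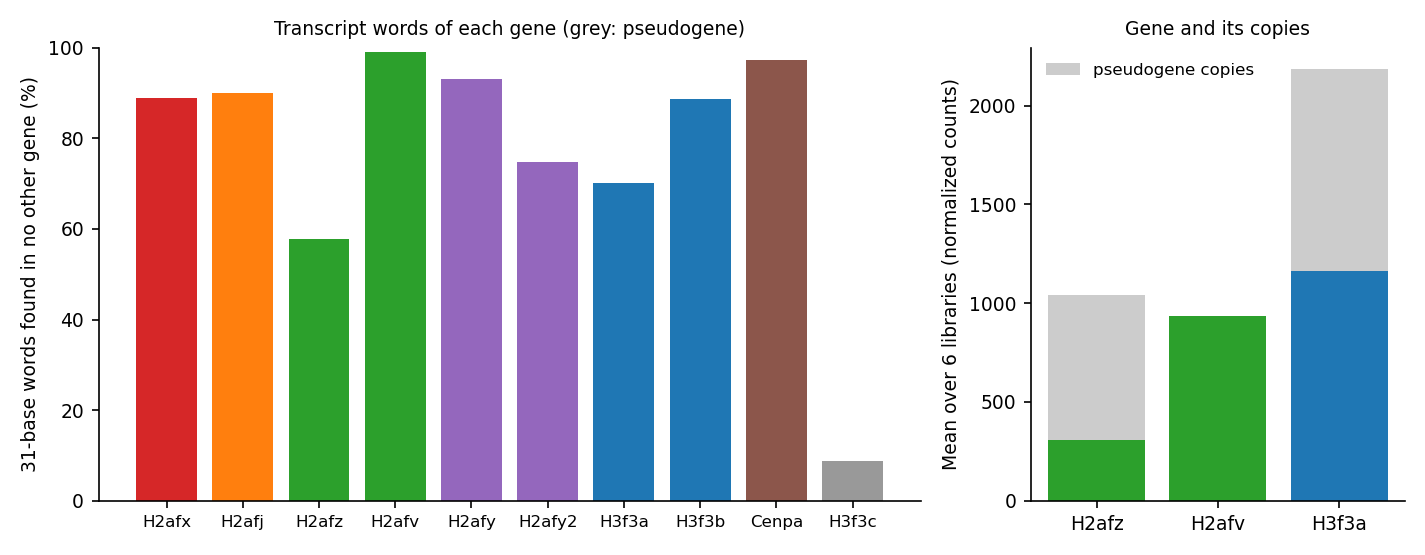
Left, share of the 31-base words of each gene's annotated transcripts that occur in no other gene, in percent, for the 9 members and the pseudogene H3f3c in grey. Right, mean over 6 libraries in normalized counts for H2afz, H2afv and H3f3a, with the summed means of their pseudogene copies in light grey on top. H2afz has the lowest share of the members, 57.7%, and its bar with the copy, 1044, exceeds that of H2afv at 937.

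H2A.Z is exchanged into nucleosomes next to transcription start sites. Its genes are H2afz on chromosome 3 at 137864487 to 137866922 (plus strand) and H2afv on chromosome 11 at 6427229 to 6444443 (minus strand), each with 5 coding exons. As listed, H2afv at 937 stood 3.07 times above H2afz at 305, and 2.31 times above it per kilobase. This order turned when the copy was counted. Gm8203, which lies on chromosome 6 at 116173737 to 116174123 on the strand opposite to Tmcc1, had a mean of 739, more than H2afz itself. Of its 357 words, all occur in H2afz, and 0 of them are its own. Transcripts of Tmcc1 share 639 of the 1909 words of H2afz, counted on both strands. H2afz and Gm8203 together came to 1044, which is 1.11 times H2afv. The words of H2afv, by contrast, were its own in 99.0% of cases. For H2afz the share was 57.7%, the lowest of the 9, so its level is uncertain, and the sum of the H2A.Z genes, 1242 as listed, does not include Gm8203.

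The H2A.Z sum was 23.6% of the H2A total. That total comprises the 6 H2A members, with 3718 normalized counts, and 20 genes with clustered H2A symbols, with 1552, of which 3 were listed at 0. The annotation calls 2 of the 20 pseudogenes, Hist1h2aj, listed at 0, and Hist1h2al, at 0.92. The replacement genes therefore held 70.5% of it. Clustered genes also share sequence with one another and with other annotated genes, so single values among them are uncertain. Hist2h2aa1, one of those at 0, has 0 words of its own among 556. All 556 occur in Gm20633 and 498 of them in Hist2h2aa2. Hist3h2a at 584 and Hist2h2ac at 376 made up 61.8% of the clustered H2A sum.

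**Figure D4:**
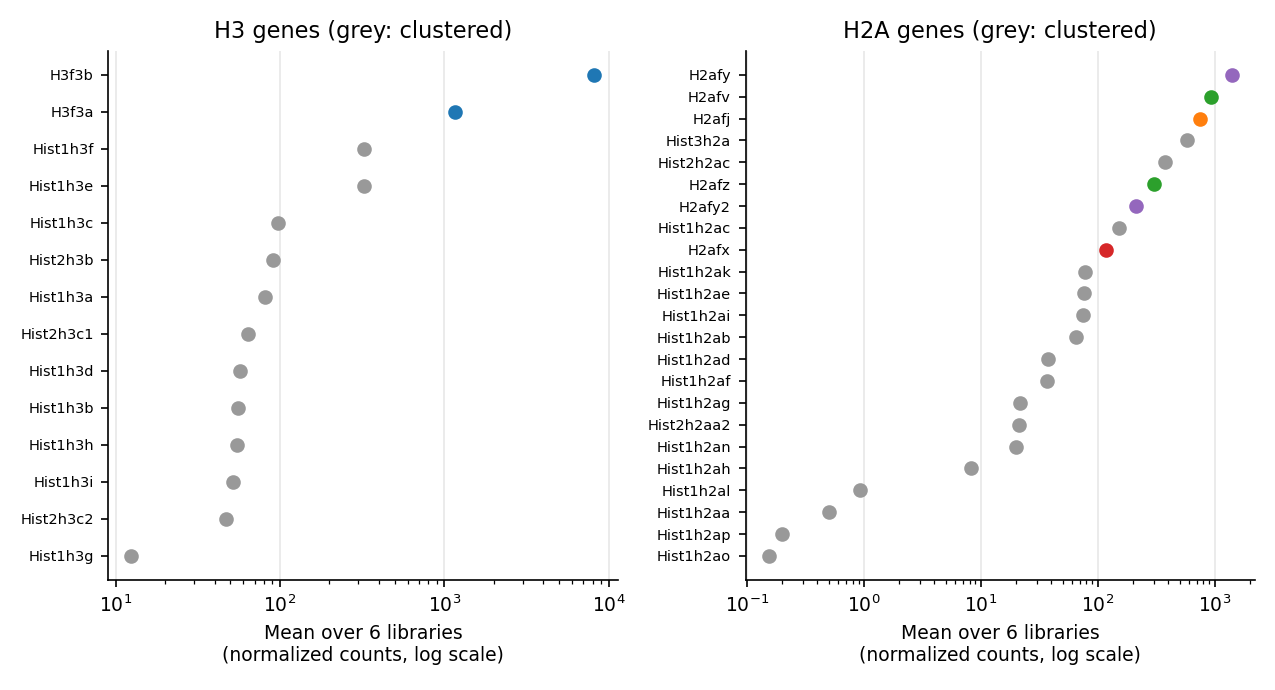
Mean over 6 libraries of each H3 gene (left) and H2A gene (right) above 0, in normalized counts on log axes, with replacement genes coloured by protein and clustered genes in grey. H3f3a and H3f3b lie above all 12 clustered H3 genes, whereas among the H2A genes H2afy, H2afv and H2afj lie above all clustered genes and H2afz, H2afy2 and H2afx lie among them.

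MacroH2A carries a large globular macro domain behind its histone fold. H2afy, on chromosome 13 at 56073619 to 56136361 (minus strand), and H2afy2, on chromosome 10 at 61738665 to 61784147 (minus strand), both encode 372 residues in 8 coding exons. Their proteins are identical at 249 residues (66.9%). H2afy stood at 1392 and H2afy2 at 213, a ratio of 6.52. The ratio was 15.5 with the median transcript length and 3.53 with the longest, because 8 transcripts of up to 4018 bases are annotated for H2afy and 1 of 2175 bases for H2afy2. Together the 2 genes held 30.5% of the H2A total, above the share of H2A.Z as listed. With Gm8203 added the order was the other way, at 26.7% for macroH2A and 33.0% for H2A.Z. Aifm2 overlaps H2afy2 on the opposite strand. It shares 205 of the 2145 words of H2afy2 and had a mean of 460. The antisense gene Gm47071 lies opposite H2afy and shares 444 of its 6821 words.

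H2A.J is close to replication-coupled H2A and is encoded by H2afj on chromosome 6 at 136808244 to 136810074 (plus strand). Its 129 residues were identical to those of Hist2h2ac at 124 positions (96.1%), and the coding sequences agreed at 89.1% of bases with a longest shared run of 48 bases. Even so, 1645 of the 1828 words of H2afj occur in no other gene. At 752, H2afj stood above each of the 20 clustered H2A genes. Per kilobase it stood above 19 of them, and Hist2h2ac, with 723 per kilobase, was higher than its 625. H2afj held 14.3% of the H2A total.

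H2A.X carries a longer C-terminal tail, in which a serine is phosphorylated at DNA breaks. H2afx is on chromosome 9 at 44334694 to 44336077 (plus strand), with 1 exon, 1384 bases and 143 encoded residues. Its protein was identical to that of Hist3h2a at 119 of 130 aligned residues. Its mean of 118 made it the lowest H2A member, with 2.24% of the H2A total. It stood above 17 of the 20 clustered H2A genes, and above 13 of them per kilobase. As many as 120 of its 1354 words are shared with Hist1h2ab and with other clustered genes, while 88.8% are its own.

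CENP-A replaces H3 in centromeric nucleosomes and is loaded once in each cell cycle. Cenpa is on chromosome 5 at 30666777 to 30674830 (plus strand), and its 134 residues align with H3.3 at 129 positions, of which 58 are identical (45.0%). At 49.8 it was the lowest of the 9 members on each scale. For comparison, the genes of dividing cells with low means were Ccnb1 at 23.8, Aurkb at 26.3 and Bub1 at 26.8, while Cdk1 stood at 143, Mki67 at 288 and Top2a at 320.1. Ccna2 had 122. Per kilobase, Cenpa at 49.4 lay above Ccnb1 at 20.1, Aurkb at 35.3 and Bub1 at 44.0, and below Mki67 at 54.2, Ccna2 at 70.9, Cdk1 at 206 and Top2a at 399. The longest of its 10 annotated transcripts, which retains an intron, has 3806 bases, and with it as the length the level of Cenpa was 13.1 per kilobase.

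Genes whose proteins deposit or read the variants were taken from a fixed list of 35, of which 34 have a row. Among 8 H3.3 deposition genes, levels per kilobase ran from 590 for Hira, a subunit of the complex that loads H3.3 at active genes, to 7795 for Atrx, a remodeller that loads it in heterochromatin with Daxx, itself at 775. Among 11 genes of H2A.Z exchange they ran from 206 for Ruvbl1, an ATPase of the remodelling complexes, to 3103 for Anp32e, a chaperone that removes H2A.Z. Srcap and Ep400, the catalytic subunits of the exchange complexes, had 709 and 2209. In deposited means, H3.3 deposition genes ran from 510 for Daxx to 6010 for Atrx, so their lowest gene depended on the scale. Genes of H2A.Z exchange ran from 241 for Ruvbl1 to 2461 for Anp32e. For the genes of these lists only the median transcript length was used. Other lengths, which moved the order of the members, were not tried for them.

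Genes of CENP-A deposition lay on both sides of Cenpa. Oip5 and Cenpn, which act when CENP-A is loaded, had 17.4 and 17.6 per kilobase, under the 49.4 of Cenpa. Cenpc1 had 320.3 per kilobase, Hjurp, the CENP-A chaperone, 780 and Cenpb, a DNA-binding centromere protein, 929. In deposited means Oip5 at 24.9 and Cenpb at 4537 were again the lowest and the highest of these genes. For H2A.X signalling, the range per kilobase was from 204 for Prkdc to 1922 for Atm, both kinases of the H2A.X tail, so each of the 6 genes exceeded the 85.2 of H2afx. In deposited means the ends were other genes. Mdc1, which binds the phosphorylated tail, had 429 and Baz1b, a kinase of the tail, had 3197. Prkdc at 1602 and Atm at 1813 lay between them, and H2afx had 118. Of the macroH2A partners, Chd1l, a remodeller with a macro domain, had 189 per kilobase, Hells 197 and Parp1, which makes the ADP-ribose that macro domains bind, 2888. In deposited means Hells was the lowest at 154, Chd1l had 557 and Parp1 had 1607.

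**Figure D5:**
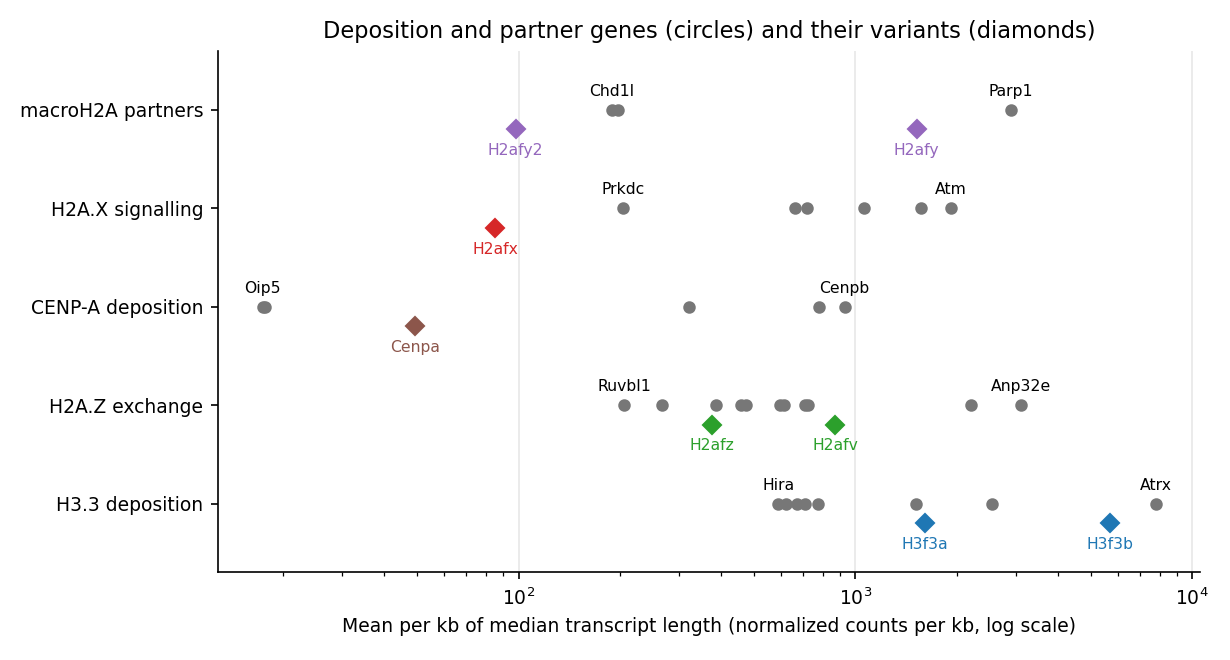
Level per kilobase of median transcript length on a log axis, in normalized counts per kilobase, for the reported genes that deposit or read each variant (circles, lowest and highest named) and for the variant genes (diamonds). Cenpa at 49.4 lies between Oip5 at 17.4 and Cenpb at 929, and H2afx at 85.2 lies under all 6 genes of H2A.X signalling.

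The members are spread over 8 chromosomes, whereas 22 of the 30 clustered H2A and H3 genes with a coding transcript lie between 21716422 and 23934851 on chromosome 13 and 7 lie between 96219865 and 96269141 on chromosome 3. H2afy is on chromosome 13 and H2afz on chromosome 3, but neither lies within those limits. H2afv and H3f3b share chromosome 11 with Hist3h2a.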

How the data were processed

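RPE/choroid RNA from 3 young and 3 aged mice was sequenced without poly(A) selection after removal of ribosomal RNA. According to the labels and the methods of the study, the authors trimmed reads with BBDuk, mapped them with STAR to Ensembl transcripts of GRCm38, estimated abundances as TPM with Sailfish and turned these into normalized counts by total count. The deposited signal is the mean that DESeq2, run by the authors, gave for each gene over all 6 libraries, in normalized counts. The deposited table has 0 columns that name a sample, so the depth of each library and the spread of the levels between mice could not be computed, and no test of age was run. Its other 5 columns hold the authors' own comparison of the ages (a log2 fold change, its standard error, a statistic, a p-value and an adjusted p-value) and were not used.

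Computed here were percentiles, sums, levels per kilobase and sequence comparisons (Python 3.11.15, pandas 2.3.3, Biopython 1.88), with GENCODE transcripts on GRCm38 matched by symbol for 28553 of 33924 genes. Length is the median over the annotated transcripts of a gene. A word is a stretch of 31 bases, counted on both strands. Words come from the GENCODE transcripts, whereas the authors counted against an Ensembl annotation. The shares of own words may therefore not match those met by the counts. Of the 1300 genes that share words with H3f3a, 918 have a row. A pseudogene is called a copy of a gene when at least 50% of its words occur in it. Functions were tested on simulated data. All members are named, and of each partner list the highest and the lowest gene; further genes of the lists were named after their values had been seen. Members and lists were chosen with earlier results of these data known. Alternatives were other lengths for the members and their pairs, other sets of genes to rank among, and sums with or without pseudogenes and macroH2A genes. Some genes of the lists are not reported here.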

Additional observations from a re-analysis of the deposited data

How the results depend on the processing

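No paired analysis was possible because each gene has a single mean over both ages. Hence leaving out a library, a replicate block and any test of age were not run. Per kilobase of the median transcript, the H3.3 share of the H3 mean was 81.7% instead of 88.1% and the replacement share of the H2A mean 64.1% instead of 70.5%. With H3f3c and Gm12260 in the total, the H3.3 share was 85.8%. Without the macroH2A genes, the H2A share was 57.6%. The ratio of H3f3b to H3f3a was 3.55 per kilobase and 7.94 with the longest transcript, that of H2afz to H2afv 0.43 and 0.50, and that of H2afy to H2afy2 15.5 and 3.53. Adding pseudogene copies, chosen after the data had been seen, gave 3.74 for H3f3b to H3f3a, 89.2% for the H3.3 share and 74.2% for the H2A share, and turned the ratio of H2afz to H2afv from 0.33 to 1.11. Among all genes of the table, those at 0 included, all 9 percentiles were higher, and among genes with a mean of at least 10 all 9 were lower, which put H2afz, H2afy2 and H2afx under the median. With the longest transcript, the level per kilobase was lower for 7 members and the same for 2, and H3f3a and H2afy moved from places 2 and 3 to 4 and 5.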

Other observations

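A further 4 genes or pseudogenes of H2A and H3 variants had means below that of every member. H2afb1 had a mean of 0.752 normalized counts, H2afy3 had 4.25 and Gm12260, annotated as an unprocessed pseudogene, had 4.76, while H2afb2-ps was listed at 0. H2afy3 shares 338 of the 2145 words of H2afy2, so its few counts are uncertain.

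Promoters, taken from RefSeq on GRCm38.p6 as 250 bases before to 50 after each start, were matched for 8 of the 9 members under current symbols. CCAAT, on either strand, was found in 7 of the 8, all but H2afy, and in 37.4% of all 32851 promoters. The GC box letters GGGCGG were found in 6 of the 8 and in 35.7% of all. TATAAA was found in H3f3b alone of the 8, and in 13.6% of all, and TTTGAA in H2afv and Cenpa, and in 17.9% of all. These matches are descriptions of letters in a window and were not tested.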
